A study of Mus musculus with 2 samples.

Results

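The bicistronic clusters that join miR-1 or miR-206 to a miR-133 are the miRNA pairs that mark striated muscle, and here they were followed in small RNA libraries of E9.5 wild type (WT) hearts. Their members were found by name: every precursor whose mature miRNA is miR-1a, miR-133a, miR-206 or miR-133b, without regard to copy number or arm, was taken. This gave 6 precursors of 620 listed in all, and all 6 were listed in both replicates, out of 568 precursors in replicate 1 and 523 in replicate 2. The libraries came from total RNA of C57BL/6 embryos at embryonic day 9.5, with no treatment and no mutant group, and were read as single ends of 50 nt. There were 2 replicates of this single group, so no conditions could be compared, and the sources used here do not say whether the replicates came from separate litters or how many hearts each one pooled. Errors therefore describe these 2 libraries, and the spread may be technical. The deposited values are raw read counts made with miRDeep2, a program that assigns small RNA reads to the arms of miRNA hairpins. For each precursor they give reads on the mature arm, on the opposite (star) arm and on the loop between them. The tables held 4942257 mature and 124128 star reads in replicate 1, and 4806179 and 132103 in replicate 2.

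MiR-1 and miR-206 on one side, and miR-133a and miR-133b on the other, are made from shared primary transcripts that carry a hairpin of each type. In vertebrates the pairs with miR-1 and miR-133a are active in heart and skeletal muscle under MEF2, SRF and myogenic factors, whereas the pair with miR-206 and miR-133b is known from skeletal muscle. MiR-1 is known to promote muscle differentiation, with Hand2 and Hdac4 among its targets, and miR-133a is known to repress Srf, cyclin D2 and smooth muscle genes. Drosha with DGCR8 cuts each hairpin out of the transcript, Dicer removes the loop, and an Argonaute protein keeps a single arm while the other, the star, is mostly lost.

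The mature sequences show how the members relate, with the seed (nucleotides 2 to 8, which pair with target mRNAs) in capitals. They are from the RefSeq table of mouse miRNAs (GRCm38.p6), in which 5 mature arms of the members were matched, and miR-1a-3p and miR-133a-3p are named only. The 5p arm of miR-1a-1 is the star arm that tells its locus apart from that of miR-1a-2.
miR-206-3p: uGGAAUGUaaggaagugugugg
miR-133b-3p: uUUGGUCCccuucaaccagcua
miR-1a-1-5p: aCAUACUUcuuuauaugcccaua
The deposited precursors of the skeletal muscle pair follow, with the part taken as mature in capitals. MiR-206 lies at chr1:20669101-20669154 and miR-133b at chr1:20672877-20672937 of mm9, both on the plus strand.
miR-206 precursor: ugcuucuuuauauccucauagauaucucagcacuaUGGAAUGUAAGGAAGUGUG
miR-133b precursor: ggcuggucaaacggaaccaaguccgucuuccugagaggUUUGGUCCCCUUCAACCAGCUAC
Over the bases that could be compared, the consensus mature sequence listed for miR-1a differed from miR-206-3p at 3 of 21 positions, and their first 10 bases, which hold the seed, were the same. The consensus mature sequence of miR-133a matched miR-133b-3p over its first 21 bases and differed at the last of 22. The seed of miR-1a and miR-206 was carried by 3 of the 620 precursors, and all 3 are members. The seed of miR-133a and miR-133b was likewise found in the other 3 members alone. The mature part taken for miR-206 was 19 nt long, shorter than the 22 nt of RefSeq, and that of miR-133b was 23 nt, with the same first base in each case.

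The members formed 3 pairs by position on mm9. MiR-1a-1 lies on the plus strand of chromosome 2 from 180123762 to 180123821, and miR-133a-2 starts 9343 nt further on, from 180133105 to 180133163. GENCODE vM1 places no host gene over this pair, and its nearest other gene, B230312C02Rik on the opposite strand, lies 3172 nt from miR-1a-1. MiR-1a-2 occupies 10785484 to 10785543 of chromosome 18, minus strand, and miR-133a-1 follows it from 10782911 to 10782969. Both are inside introns of Mib1, an E3 ubiquitin ligase of Notch signalling, which is transcribed from the other strand. The pair of miR-206 and miR-133b has starts 3776 nt apart on chromosome 1, in the interval between Pkhd1 and Il17a. The nearest edge of Pkhd1 is 60956 nt from miR-206, and that of Il17a is 48049 nt from miR-133b. In all 6 precursors the reads lay mainly on the 3p arm, whereas 326 of all 620 precursors (52.6%) had their mature part there. The tables name the 5p arm for the 6 members and state that the reads lie on the opposite one, so they are called by the arm with the reads.

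**Figure D1:**
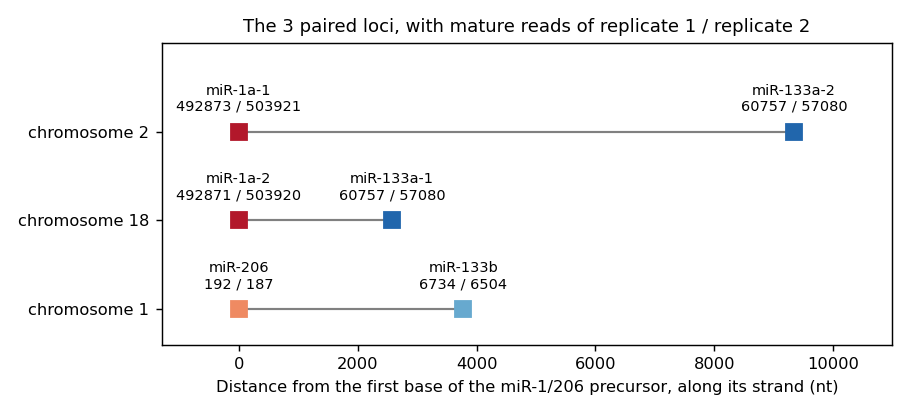
Map of the 3 pairs. The x axis gives the distance in nt from the first base of the miR-1a or miR-206 precursor along its own strand, squares mark precursors, and the numbers are mature reads in replicate 1 and replicate 2. The miR-1-type precursor comes first in all 3 pairs, with 192 and 187 mature reads for miR-206 against 492873 and 503921 for miR-1a-1.

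MiR-1a had the most mature reads listed of all miRNAs in these hearts, miR-133a had fewer, miR-133b fewer again, and miR-206 the fewest of the 4. This is an order of reads, and amounts of the miRNAs were not measured. For the miR-1a-1 precursor, 492873 mature reads were listed in replicate 1 and 503921 in replicate 2. MiR-1a-2 held 492871 and 503920, a difference from miR-1a-1 of 2 reads and 1 read, and both give the same mature sequence, so that a read matching both is listed at each. Both miR-133a precursors had 60757 mature reads in the first replicate and 57080 in the second, again with a shared mature sequence. MiR-133b held 6734 and 6504 mature reads. MiR-206 held 192 and 187. The order was the same in both replicates, and no value of a member in either replicate reached that of the next higher name. In whole hearts, fewer cells of a type and less of a miRNA per cell cannot be told apart.

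**Figure D2:**
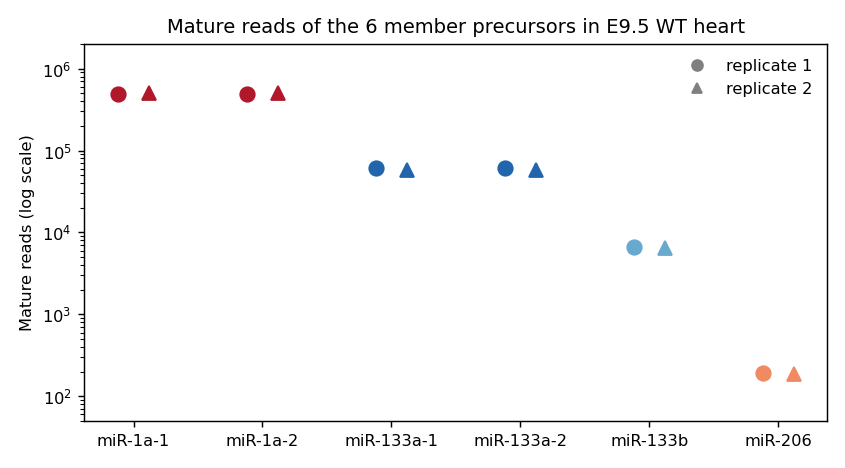
Mature reads of the 6 members on a log scale, with circles for replicate 1 and triangles for replicate 2. Reads step down from 492873 and 503921 for miR-1a-1 to 192 and 187 for miR-206, and the symbols of the replicates lie side by side.

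As a share of all mature reads, the miR-1a entries together held 19.9% in replicate 1 and 21.0% in replicate 2 (20.46% ± 0.72, SD, n = 2). Those of miR-133a held 2.46% and 2.38% (2.417% ± 0.059, SD, n = 2). MiR-133b held 0.1363% in replicate 1 (95% Wilson interval 0.133% to 0.140%) and 0.1353% in replicate 2 (0.132% to 0.139%). MiR-206 held 0.00388% (0.00337% to 0.00447%) and 0.00389% (0.00337% to 0.00449%). These intervals cover counting error only. All 6 members summed to 22.5% and 23.5% of mature reads. Since reads of miR-1a and miR-133a were counted at 2 precursors, their shares fell when each mature sequence was counted once, to 14.0% ± 0.55 for miR-1a and 1.654% ± 0.034 for miR-133a (SD, n = 2), while miR-133b rose to 0.1859% and miR-206 to 0.00532%. By seed, the group of miR-1a and miR-206 ranked 1 of 430 seeds with 20.46% ± 0.72 of mature reads, and that of miR-133a and miR-133b ranked 11 with 2.553% ± 0.060 (SD, n = 2 for each). With each sequence counted once the ranks were 1 and 14.

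The entries next in rank show where the members stood. Both miR-133a entries, at 1.208% ± 0.029, lay below miR-370-3p (1.232% ± 0.019) and above miR-541-5p (1.088% ± 0.043; SD, n = 2 for each). The order of miR-133a and miR-370-3p changed between the replicates, with 60757 against 60208 reads in replicate 1 and 57080 against 59847 in replicate 2. MiR-133b, at rank 79 of the 471 precursors listed in both replicates, lay below miR-199a-3p (0.1395% ± 0.0084) and above miR-128-1-3p (0.133% ± 0.018; SD, n = 2 for each). Its distance to either was smaller than the spread of that neighbour. MiR-206 ranked 281, between miR-96-5p, with 213 and 167 mature reads, and miR-3963, with 56 and 306. It differed less between the replicates than either of these.

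Within each pair, the mature reads listed for the hairpins were very unequal, with the miR-1 type higher in the heart pairs and the miR-133 type higher in the skeletal muscle pair. The latter direction rests on the reads listed for miR-133b, which cannot be told apart from reads of miR-133a where they end within the shared first 21 bases. The ratio of miR-1a to miR-133a was 8.11 in replicate 1 and 8.83 in replicate 2 (8.47 ± 0.51, SD, n = 2). It is taken over both heart loci, whose mature reads could not be separated, so the ratio at each locus is not known. At the chromosome 1 locus miR-133b was listed with 35.1 times the mature reads of miR-206 in replicate 1 and 34.8 times in replicate 2 (34.93 ± 0.21, SD, n = 2). Among 125 pairs of neighbouring precursors on a strand with gaps of at most 10 kb, both listed in both replicates, the median ratio of the higher to the lower was 3.46, with quartiles of 1.65 and 11.0. The pair of miR-206 and miR-133b was the 14th most unequal, and the heart pairs ranked 37 and 38, by the reads as listed at each precursor. The log2 ratio within the pair differed between the replicates by 0.012 for miR-206 and miR-133b and by 0.12 for miR-1a and miR-133a, against a median of 0.18 over the 125 pairs.

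Across the pairs, the miRNAs with a shared seed were much further apart for the miR-1 type than for the miR-133 type. With a single entry of each name, miR-1a held 2567 times the mature reads of miR-206 in replicate 1 and 2695 times in replicate 2 (2630.9 ± 90.3, SD, n = 2). MiR-133a held 9.02 and 8.78 times those of miR-133b (8.90 ± 0.17, SD, n = 2). When both entries of miR-1a and miR-133a were summed, as for the shares, these ratios were 5262 ± 181 and 17.80 ± 0.35 (SD, n = 2 for each). Reads that end within the first 21 bases are identical for miR-133a and miR-133b and match all 3 precursors, and the deposited counts do not separate them from reads with the last base. How much of the 6734 and 6504 reads of miR-133b came from miR-133a was not tested.

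MiR-1a and miR-133a differed far more in the share of reads on the star arm than in mature reads. MiR-1a, with its mature sequence counted once, had 50 star reads in replicate 1, or 0.0101% of star and mature reads (95% Wilson interval 0.00769% to 0.0134%), and 36 in replicate 2, or 0.00714% (0.00516% to 0.00989%). MiR-133a, from the same transcripts, had 3300 star reads in replicate 1, or 5.15% (4.98% to 5.33%), and 3064 in replicate 2, or 5.09% (4.92% to 5.27%). The star percent of miR-133a was thus 508 and 713 times that of miR-1a. The 5.14 and 5.09 percentage points between them were far beyond the intervals. The exact p of Fisher's two-sided test was too small to be computed in each replicate. The intervals and this test cover counting error within a library only. Beside 19.9% and 21.0% of all mature reads, the miR-1a entries held 0.0403% and 0.0273% of all star reads, and those of miR-133a 5.32% and 4.64%.

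Against the other miRNAs of the heart, the star percent of miR-1a was low and that of miR-133a was in the upper part of the range. A star percent was compared over the 187 precursors that reached 1000 mature reads in each replicate, whose median was 0.753% with quartiles of 0.0310% and 6.80%. Of these, 39 had a lower star percent than miR-1a-1 and 34 a lower one than miR-1a-2, whereas 129 lay below miR-133a-1 and 130 below miR-133a-2. These percents set the star reads of a precursor against mature reads that its paralog shares. They are thus not the star percent of a single locus. The 34 had 0 star reads in both replicates, and miR-133b was among them. Of the 34, 10 shared at least 18 leading bases with a precursor of higher share, as miR-133b does with miR-133a.

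**Figure D3:**
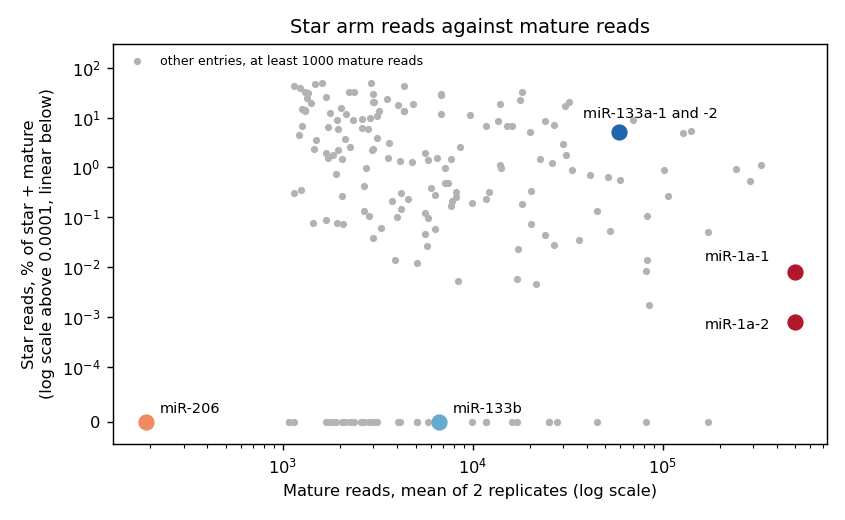
Star reads as a percent of star and mature reads (y, mean of 2 replicates, log scale above 0.0001) against mature reads (x, mean of 2 replicates, log scale), with members in colour and other precursors of at least 1000 mature reads in grey. MiR-133a lies near 5%, miR-1a-1 and miR-1a-2 lie at or below 0.01% at the highest read number, and miR-133b and miR-206 have no star reads. Mature reads shared by both precursors of miR-1a or miR-133a are listed at each, so these values are not those of a single locus.

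No star and no loop read was listed for miR-133b or miR-206. For miR-133b, 0 star reads beside 6734 mature reads in replicate 1 allows a star percent of up to 0.0446%, and 0 beside 6504 in replicate 2 allows 0.0461%. At the star-to-mature ratio of miR-133a, 366 and 349 star reads would have been listed, and both limits of miR-133b lie below the intervals of miR-133a. This takes all mature reads listed for miR-133b as its own, and how many came from miR-133a was not tested. The 5p arms of miR-133a and miR-133b differed at 4 of 21 positions compared, whereas their mature parts shared the first 21. For miR-206 the depth was too low to compare: 0 beside 192 mature reads allows up to 1.56%, 0 beside 187 allows up to 1.60%, and at the ratio of miR-1a 0.0195 and 0.0134 star reads would have been listed. With 0 star reads at both miR-206 and miR-133b, a test between them could show nothing.

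The star arm also shows reads by locus for miR-1a, because the 5p arms of miR-1a-1 and miR-1a-2 differ at 2 of 23 bases, whereas their mature parts are the same. The star arm of miR-1a-1 held 46 reads in replicate 1 and 32 in replicate 2, and that of miR-1a-2 held 4 and 4. The chromosome 2 locus thus gave 92.0% of miR-1a star reads in replicate 1 (95% Wilson interval 81.2% to 96.8%) and 88.9% in replicate 2 (74.7% to 95.6%), or 90.4% ± 2.2 (SD, n = 2). In each library this differed from an equal split (adjusted p = 8.9e-10 in replicate 1 and 1.9e-06 in replicate 2, exact two-sided binomial test), and the split was not told apart between the replicates (p = 0.71, Fisher's exact test). These p-values cover counting error within a library.

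For miR-133a the star arm gives no such view, since the 5p arms of both loci are identical and 3300 and 3300 star reads were listed in replicate 1, and 3064 and 3059 in replicate 2. The loops differ at 5 of 16 bases, and the few loop reads lay on a single side. MiR-133a-2, on chromosome 2, had 2 loop reads in replicate 1 and 5 in replicate 2, and miR-133a-1 had 0 in both. MiR-1a-1 had 0 and 1 loop reads and miR-1a-2 had 0 in both. Every loop read listed for the members therefore lay at the chromosome 2 locus. Of the 187 precursors compared above, 149 had 0 loop reads in both replicates. Whether a star or loop read is lost at the same rate at both loci was not tested, so the split describes these reads and not the output of mature miRNA.

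**Figure D4:**
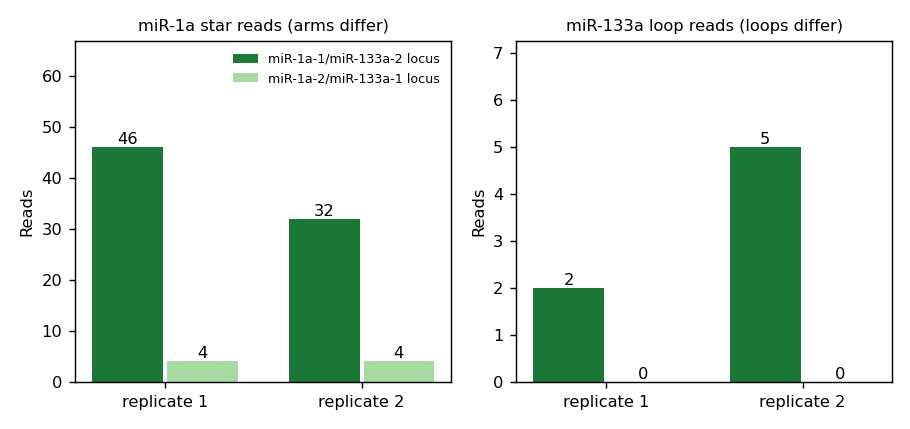
Reads whose sequence differs between the heart loci, by replicate: miR-1a star reads on the left and miR-133a loop reads on the right, with dark bars for the miR-1a-1/miR-133a-2 locus and light bars for the miR-1a-2/miR-133a-1 locus. Star reads were 46 against 4 and 32 against 4, and loop reads 2 against 0 and 5 against 0.

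The shares of the members differed little between the replicates. Under an exact binomial test of mature reads over the 431 precursors listed in both replicates with at least 20 reads in sum, 177 (41.1%) differed at an adjusted p of 0.05. Among the members, the 4 miR-1a and miR-133a entries differed and miR-133b and miR-206 did not pass. Entries of the same name list the same or nearly the same reads and are not separate calls. With each mature sequence counted once, 137 of 352 precursors differed, miR-1a and miR-133a among them and miR-133b and miR-206 not. MiR-1a had a higher share in replicate 2, with a log2 ratio of replicate 2 over replicate 1 of 0.072 at each entry (adjusted p = 1.3e-136, exact binomial test). MiR-133a had a lower share there, at -0.050 on the same scale (adjusted p = 1.7e-08, same exact test). That of miR-133b was -0.0099 (adjusted p = 0.79) and that of miR-206 was 0.0022 (adjusted p = 1, same exact test for each). All 6 were smaller in size than the median of 0.19 over the 431 precursors. The test covers counting error, and at these read numbers it passes small differences. With DESeq2 size factors in place of the totals, miR-1a no longer differed (log2 ratio 0.0041, adjusted p = 0.28), while miR-133b passed with a value of -0.078 (adjusted p = 0.0059, exact test for both). The sizes depended on the scaling: for miR-1a the log2 ratio fell to 0.014 with TMM (adjusted p = 8.5e-06), and for miR-133a it was -0.11 with TMM and -0.12 with DESeq2 size factors (adjusted p = 6.0e-37 and 1.3e-43, exact binomial test for all), lower in replicate 2 under all 3 scalings.

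**Figure D5:**
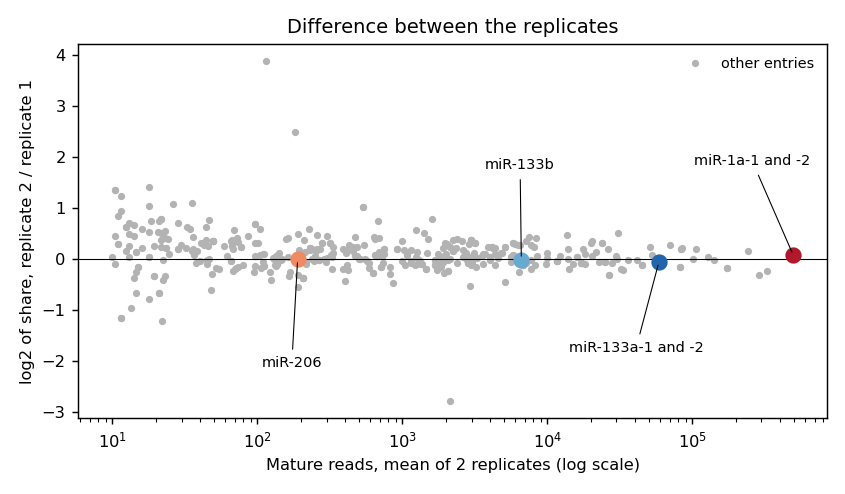
Log2 ratio of the share in replicate 2 over that in replicate 1 (y) against mature reads (x, mean of 2 replicates, log scale) for the 431 tested precursors. The members, in colour, lie between -0.050 and 0.072, from miR-206 at the low end of the read numbers to miR-1a at the high end.

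Beside the members, other miRNAs of striated muscle had far fewer mature reads than miR-1a. MiR-499-5p, from an intron of the myosin gene Myh7b, had 8262 mature reads in the first replicate and 7061 in the second. MiR-208b-3p, from the gene of slow myosin Myh7, held 1877 and 1581. MiR-208a-3p, from the gene of cardiac myosin Myh6, held 860 in replicate 1 and was not listed in replicate 2. MiR-499-5p and miR-208b-3p had a lower share in replicate 2 (log2 ratios -0.19 and -0.21, adjusted p = 9.5e-15 and 1.0e-04, exact binomial test), the direction of miR-133a and not that of miR-1a. MiR-486a-5p, from the ankyrin gene Ank1 of muscle and red cells, had a higher share there, with 5456 and 6534 reads at its higher entry. MiR-133b held a share between those of miR-499-5p (0.157% ± 0.014) and miR-208b-3p (0.0354% ± 0.0036), and miR-206 one below all of these (SD, n = 2 for each).

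Marker miRNAs of other cell types in the heart and around it were counted in the same way. The cardiomyocyte list of miR-208a, miR-208b and miR-499 summed to 0.223% and 0.180% of mature reads, with all 3 names listed in replicate 1 and all but miR-208a in replicate 2. Endothelial miR-126a held 2.90% and 2.87%, and the smooth muscle list of miR-143 and miR-145a held 7.94% and 6.82%. The erythroid (miR-451a, miR-144), neural (miR-124, miR-9) and liver (miR-122) lists held between 0.00259% and 0.0554% in each replicate, and the pluripotent list (miR-302b, miR-302d) 0.375% and 0.366%. These sums run over entries as listed, so the 237 and 178 mature reads of miR-9 enter the neural sum at every one of its entries. MiR-144 was listed in replicate 2 alone and miR-124 in replicate 1 alone. The part of these cell types in the levels of the members was not tested. MiR-206 and miR-133b are themselves the skeletal muscle list, and it held 0.1401% and 0.1392%, nearly all of it miR-133b.

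In folding, 5 of the 6 deposited precursors lay near the middle of all, and that of miR-206 had a weaker energy. The folding energy computed for the deposited precursors was -0.375 kcal/mol per nt for miR-1a-1, -0.368 for miR-1a-2, -0.398 for miR-133a-1, -0.388 for miR-133a-2 and -0.403 for miR-133b, against a median of -0.392 over all 620. MiR-206, at -0.296 kcal/mol per nt, was above the upper quartile of -0.335, and 534 of the 620 had a lower energy per nt. Its deposited sequence is cut short, at 54 nt, without the first 3 bases of RefSeq miR-206-5p and the last 3 of miR-206-3p, so the value is not that of the whole hairpin. GC content was low in the miR-1 type, from 31.7% to 37.0%, and near or above the median of 49.2% in the miR-133 type, from 47.5% to 55.7%.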

How the data were processed

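Small RNA of E9.5 WT hearts (2 replicates) was analysed from processed tables. Clean reads were mapped to mm9 with miRDeep2 by the authors, who deposited raw counts of reads per known precursor without normalization, and the miRDeep2 score, which the deposited tables give rounded. Versions of miRDeep2 and miRBase, trimming and length filters are not given in the sources used here. Paralogs with the same mature sequence carry the same reads in these tables. All 1091 precursor sequences were found in NCBIM37, the assembly of mm9, and positions count from 1. Replicates were paired by at least 50% overlap on the same strand. Shares are percents of mature reads, and ratios are means with SD. Exact binomial tests with Benjamini-Hochberg adjustment ran over all entries with at least 20 mature reads in sum. The script was first tested on simulated counts with counting error only and a known scale. That run does not bear on spread between libraries or on the choice of scaling here. Python 3.11.15, scipy 1.17.1, R 4.3.3, edgeR 4.0.16, DESeq2 1.42.0 and RNAfold 2.7.2 were used. The text names all members, their neighbours in rank, entries with their seeds or overlapping them, and fixed lists of muscle and marker miRNAs. Members and lists were chosen with earlier results of these data known.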

Additional observations from a re-analysis of the deposited data

How the results depend on the processing

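Of 112 values recomputed under alternatives, 94 were classed as unchanged. Most of these moved by less than the spread between replicates or kept their side of the threshold. The count of entries that differed was classed by a fold range around its main value. The star split between loci was classed as unchanged without a rule. The way of counting moved the shares most. With each mature sequence counted once, miR-1a held 14.0%, miR-133a 1.65%, miR-206 0.00532% and miR-133b 0.186% of mature reads. With all reads of the precursor in place of mature reads, miR-133a held 2.48%, miR-206 0.00379% and miR-133b 0.132%, and the ratio of miR-133a to miR-133b was 18.8. Over entries that reached 10 mature reads in each replicate, miR-206 held 0.00390%. With a single entry of each name the ratio of miR-1a to miR-206 was 2631 and that of miR-133a to miR-133b 8.90. Reads shared by precursors of the same name are counted once there by construction. Reads shared by miR-133a and miR-133b are not separated there. The replicate log2 ratio of miR-206 changed sign to -0.056 with TMM, -0.066 with DESeq2 size factors and -0.0012 with all reads of the precursor, none past the threshold. Of the alternatives, DESeq2 size factors ended the call of both miR-1a entries, and TMM (log2 ratio -0.068, adjusted p = 0.018, exact binomial test) and DESeq2 size factors brought miR-133b past the threshold. The count of entries that differed between the replicates ran from 137 of 352 (a single count per mature sequence) to 184 of 432 (all reads of the precursor). With 2 replicates, a value without either of them lies within the spread by construction, and such values are among the 94. Depth limits miR-206 most, whose 192 and 187 mature reads, with no star read, still allow a star percent of up to 1.56% and 1.60%.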

Other observations

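The miRDeep2 score of a hairpin, a log-odds value that the tables give rounded, followed the order of the mature reads, except at miR-1a-2 in replicate 2. MiR-1a-1 scored 250000 in both replicates. MiR-1a-2 scored 250000 in replicate 1 and 2.3 in replicate 2, with 4 star reads in each. The miR-133a entries scored 32000 and 30000, miR-133b 2.5 in both replicates and miR-206 2.1 in both.

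MiR-1b, annotated on the strand opposite to miR-1a, was listed in replicate 1 only. Its entry over miR-1a-2 had 3 mature reads and 1 star read, and its entry over miR-1a-1 had 3 mature and 0 star reads. These are at the floor of 3 reads set here, beside 492871 or more mature reads on the other strand. MiR-144-5p was listed in replicate 2 only, with 73 mature reads, and miR-451a had 128 and 127.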
